A study of Mus musculus with 19 samples.

Results

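Chemokines are small secreted proteins that steer the movement of leukocytes and microglia, and the 9 described here act mainly on myeloid cells and T cells. They are the ligands Ccl3, Ccl4, Ccl6, Ccl9, Cxcl10, Cxcl16, Cxcl12, Cxcl14 and Cx3cl1. They were chosen by gene symbol, with earlier results of these data known, from a table of 14996 genes. Of the 9, 8 have a row in that table, and Ccl4, the close relative and chromosomal neighbour of Ccl3, was not analysed here. RNA-seq was performed on the cortex of 19 APP23 mice, C57BL/6 hemizygotes that all carry human APP with the Swedish mutation of familial Alzheimer's disease, so that no group is free of the transgene. The mice received a normal diet (ND) or a high fat diet (HFD, 40% of calories from fat) for 3 months from a mean age of 11.7 months, and were of both sexes. There were 11 females (6 on ND, 5 on HFD) and 8 males (4 on each diet), with 1 library per mouse. Extraction notes give the tissue as cortex, whereas the tissue label reads brain.

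A chemokine binds a receptor coupled to a Gi protein on the responding cell, which then polarises and moves towards the source. Ccl3 signals through Ccr1, Cxcl10 through Cxcr3 of activated T cells, Cxcl16 through Cxcr6, Cxcl12 through Cxcr4 and the scavenging receptor Ackr3, and Cx3cl1 through Cx3cr1. In the brain, Cx3cl1 is made by neurons and its receptor by microglia, Cxcl12 is made by vessels and neurons, and Ccl3, Ccl6 and Ccl9 are products of microglia and other myeloid cells. Cxcl10 is a classical target of interferon signalling.

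Library totals ran from 9308206 to 17178044 reads. Every female library was deeper than every male library, with 11727151 reads in the shallowest female and 10844280 in the deepest male, so sex and depth cannot be told apart. Levels are given in RPM, the read count scaled to the library total, which are not divided by gene length, so levels are compared between mice for 1 gene and never between genes. A fold change is on the log2 scale, from the quasi-likelihood test of edgeR on read counts, with its standard error (SE), and a member is called at an unadjusted p under 0.05. Where the libraries of groups do not overlap, that describes the member only, since the share of all genes without overlap was not counted. Because these are bulk libraries, fewer cells of a type and less RNA per cell cannot be told apart. HFD female 1 stood apart: its neutrophil markers summed to 93.0 RPM, against at most 8.62 RPM in the other libraries. Erythrocyte markers were high in several HFD mice, with 88.2 RPM in HFD female 1, 51.7 RPM in HFD female 2, 33.8 RPM in HFD male 2 and 23.2 RPM in HFD female 5, against at most 9.02 RPM in ND females and 18.1 RPM in ND males. Choroid plexus markers were high in ND female 4 (385 RPM), HFD female 1 (262 RPM) and ND male 2 (169 RPM), and at most 50.8 RPM elsewhere.

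The upstream sequences of 4 members that were higher on HFD are shown because these genes moved in the same direction. Each is the 250 bases before the gene's start, printed 5' to 3' on the gene's strand, from RefSeq on build GRCm38.p6, in which 7 of the 9 members were matched. Capitals mark letters that match GAAANNGAA, an interferon regulatory factor motif, or GGNNNTTCC, an NF-kB motif, on either strand.
Cxcl10: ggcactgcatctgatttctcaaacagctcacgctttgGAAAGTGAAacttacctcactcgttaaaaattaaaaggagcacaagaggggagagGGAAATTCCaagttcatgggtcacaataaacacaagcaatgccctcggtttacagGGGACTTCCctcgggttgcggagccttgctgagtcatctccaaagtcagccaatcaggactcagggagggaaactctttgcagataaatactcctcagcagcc
Ccl3: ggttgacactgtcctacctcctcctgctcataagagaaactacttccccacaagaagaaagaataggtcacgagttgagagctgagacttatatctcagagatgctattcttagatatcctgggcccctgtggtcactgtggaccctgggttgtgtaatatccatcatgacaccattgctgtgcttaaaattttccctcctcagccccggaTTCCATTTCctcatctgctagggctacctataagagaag
Ccl6: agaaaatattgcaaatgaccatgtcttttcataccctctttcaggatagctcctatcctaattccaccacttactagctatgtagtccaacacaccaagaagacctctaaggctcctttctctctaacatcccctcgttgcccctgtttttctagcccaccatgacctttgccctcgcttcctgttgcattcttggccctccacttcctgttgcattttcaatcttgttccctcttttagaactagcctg
Ccl9: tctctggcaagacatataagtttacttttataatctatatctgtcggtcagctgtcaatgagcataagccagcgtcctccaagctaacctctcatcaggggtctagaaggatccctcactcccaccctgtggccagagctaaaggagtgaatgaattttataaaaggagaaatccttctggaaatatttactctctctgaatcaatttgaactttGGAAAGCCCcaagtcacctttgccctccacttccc

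The windows lie at chr5:92348890-92349139, minus strand (Cxcl10), chr11:83649379-83649628, minus strand (Ccl3), chr11:83593088-83593337, minus strand (Ccl6) and chr11:83578637-83578886, minus strand (Ccl9). Cxcl10 was the 1 member with both motifs. Its interferon match begins at -213 and its NF-kB matches begin at -158 and -103, counted from the start of the gene. Ccl3 held an interferon match at -39, which reads as the reverse complement, and Ccl9 an NF-kB match at -35, also on the other strand. Ccl6 held neither. Among the other members matched, Cxcl14 held the interferon motif and Cx3cl1 the NF-kB motif. Over 32851 promoter windows of this length, 7.13% held the interferon motif, 15.7% the NF-kB motif and 1% both. A match is a description of the letters and was not tested as a binding site.

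To see which chemokines differed with the diet, HFD was compared with ND within each sex and then over all mice, with sex in the model. In both sexes together, 5 of the 8 members were higher on HFD and none was lower. The 5 were Cxcl10, Ccl6, Ccl3, Ccl9 and Cxcl16, with fold changes between 0.51 and 1.36 on the log2 scale. Of all 14934 genes tested, 5.99% were called higher and 6.30% lower in that comparison. The median fold change was 0.61 (log2) over the members and 0.00 over all genes. None of the members passed an adjusted p of 0.05 with edgeR, by which 0 of 14934 genes passed and 1835 were under 0.05 before adjustment. With DESeq2, Cxcl10 (adjusted p = 0.00973) and Ccl6 (adjusted p = 0.048) passed. How many of all genes passed with DESeq2 was not counted, so these calls cannot be set against a share. Over all the alternatives tried the adjusted p ran from 0.00973 to 0.603 for Cxcl10 and from 0.048 to 0.748 for Ccl6. The other 3 members, Cxcl12, Cxcl14 and Cx3cl1, had fold changes between -0.07 and 0.04.

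**Figure D1:**
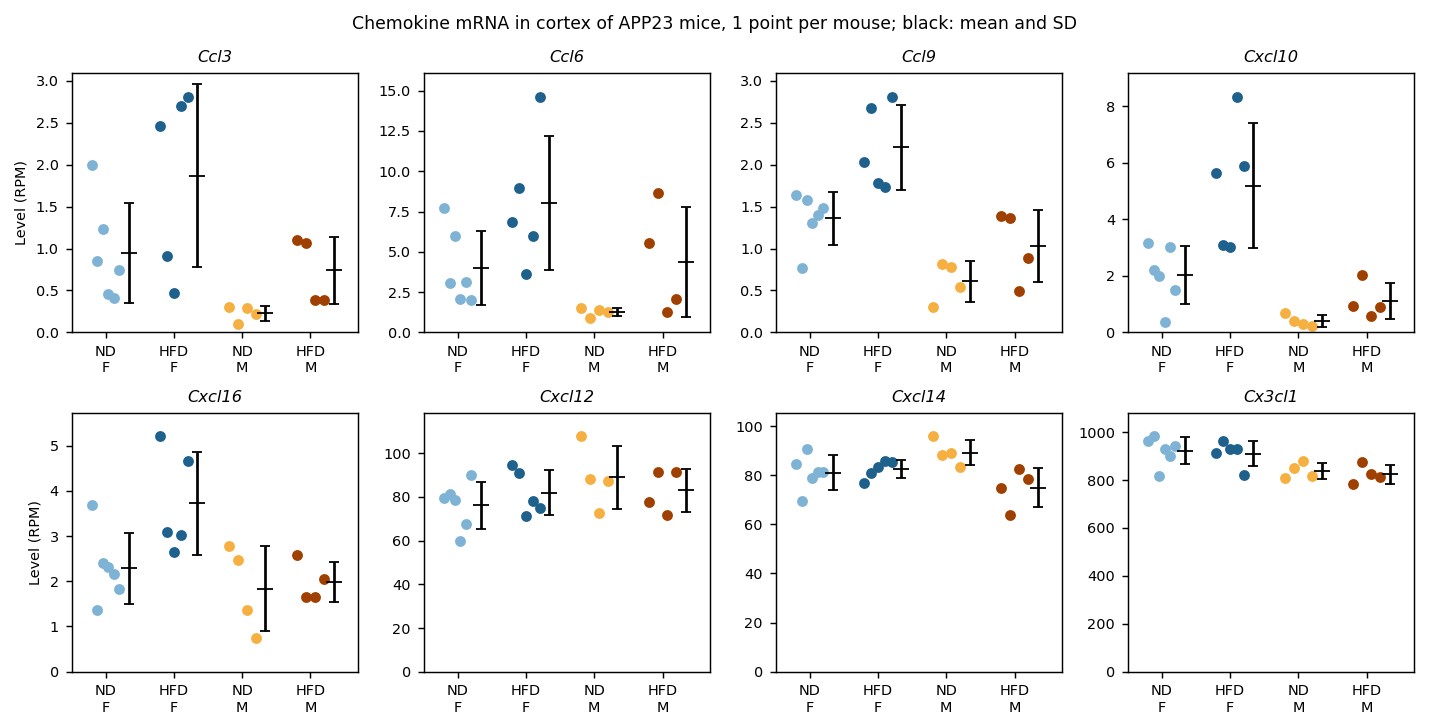
Level in RPM of each of the 8 members in each of 19 mice, by diet and sex (F, female; M, male), with the group mean and SD in black. The 5 HFD females lie above all 6 ND females for Ccl9, and the 4 HFD males lie above all 4 ND males for Ccl3 and below all of them for Cxcl14. The share of all genes without overlap was not counted.

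In females alone, 4 of 8 members were called higher and none lower, where 3.92% of all 14756 genes were called higher and 4.50% lower. In males alone the filter on low counts kept 5 of the 8 members, of which Ccl6 was called higher and Cxcl14 lower, where 4.20% of 14293 genes were called higher and 4.20% lower. Ccl3, Ccl9 and Cxcl10 fell under the count filter in males, where ND libraries held between 1 and 8 reads of each of them. An exact two-sided permutation test of their mean log2(RPM + 1) was used in its place, which with 4 mice against 4 cannot give a p under 0.0286. Without the filter, edgeR called Ccl3 (1.69) and Cxcl10 (1.46) higher in males and did not call Ccl9 (0.78). The comparison of both sexes shares its mice with the comparisons within a sex.

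**Figure D2:**
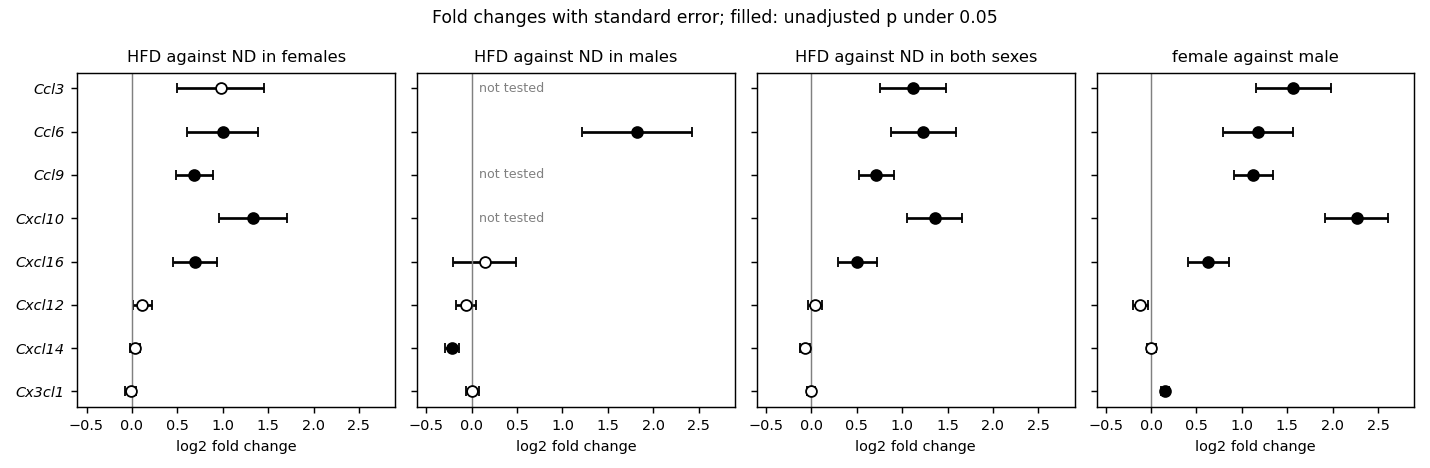
Fold change (log2) and standard error of each member in 4 comparisons, with filled points at an unadjusted p under 0.05 and members under the count filter marked as not tested. Ccl3, Ccl6, Ccl9, Cxcl10 and Cxcl16 lie to the right of 0 for the diet in both sexes and for females against males, while Cxcl12, Cxcl14 and Cx3cl1 lie between -0.22 and 0.15 in each panel.

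Cxcl10, the interferon-induced ligand of Cxcr3, had the largest fold change for the diet among the members in females and in the fit of both sexes, whereas in males that of Ccl6 was larger. In ND females its level ran from 0.384 RPM to 3.15 RPM, with a median of 2.10 RPM. The HFD females had 5.65, 3.10, 3.03, 8.34 and 5.87 RPM. All 5 lay above the ND median, and 3 of 5 lay above every ND female. The ND males had 0.694, 0.410, 0.292 and 0.215 RPM, and the HFD males 0.922, 2.04, 0.586 and 0.882 RPM. In males 3 of 4 HFD libraries lay above every ND library, and the HFD male with 0.586 RPM lay within the ND range. The fold change was 1.33 in females (SE 0.38, adjusted p = 0.405 with edgeR). In both sexes it was 1.36 (SE 0.30, adjusted p = 0.118 with edgeR), and the call held in each alternative tried for that comparison. The call in females was lost with the microglia markers as a covariate (0.86, SE 0.395). The exact permutation test in males gave p = 0.0571. Reads of Cxcl10 could also come from Art3, which overlaps it on the other strand, since whether the counting used strand is not given in the sources used here.

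Ccl3, also known as macrophage inflammatory protein 1-alpha, had male groups that did not overlap. In ND females it ran from 0.407 RPM to 2.0 RPM, with a median of 0.798 RPM. The HFD females had 2.46, 0.915, 0.466, 2.69 and 2.81 RPM. The HFD females thus split into 3 libraries above every ND female and 2 within the ND range. The ND males had 0.297, 0.103, 0.292 and 0.215 RPM, which are 1 to 3 reads, and the HFD males had 1.11, 1.07, 0.390 and 0.392 RPM, which are 4 to 12 reads. The groups of males did not overlap, with the smallest exact permutation p that 4 against 4 allows (p = 0.0286). In both sexes the fold change was 1.12 (SE 0.37, adjusted p = 0.216 with edgeR). In females it was 0.98 (SE 0.48 with edgeR) and was not called. It was called without ND female 1 (1.37), without HFD female 2 (1.15) or without HFD female 3 (1.21). With all mice, 1 fit of the 4 groups also called it, at a fold change of 0.97. With the microglia markers as a covariate it was 0.003 (SE 0.36), and without HFD female 1 it was 0.87, neither of them called.

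Ccl6, a chemokine of rodent myeloid cells, was called higher on HFD within each sex and over both. In ND females it ran from 2.03 RPM to 7.69 RPM, with a median of 3.11 RPM. The HFD females had 6.88, 8.94, 3.65, 5.97 and 14.6 RPM. All 5 HFD females lay above the ND median, and 2 of 5 lay above every ND female. The ND males had 1.49, 0.923, 1.36 and 1.29 RPM, a narrow range, and the HFD males 5.53, 8.64, 1.27 and 2.06 RPM. HFD males 1 and 2 thus lay far above the ND males, HFD male 4 just above them, and HFD male 3 within their range. The fold change was 0.999 in females (SE 0.39, adjusted p = 0.551) and 1.82 in males (SE 0.61, adjusted p = 0.553), both with edgeR. Over all mice it was 1.23 (SE 0.36, adjusted p = 0.181 with edgeR). The call in females was lost without ND female 5 (0.93), without ND female 6 (0.87) or without HFD female 5 (0.67). Another gene model overlaps Ccl6 in the GENCODE annotation, and their reads cannot be told apart.

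Ccl9, a chemokine known from the mouse that attracts myeloid cells through Ccr1, was the member whose female groups did not overlap. In ND females it ran from 0.767 RPM to 1.64 RPM, with a median of 1.44 RPM. The HFD females had 2.03, 2.67, 1.79, 1.73 and 2.81 RPM. Every HFD female was above every ND female, and the group means were 2.21 RPM ± 0.504 (SD, n = 5) and 1.36 RPM ± 0.314 (SD, n = 6). The ND males had 0.297, 0.821, 0.779 and 0.537 RPM, and the HFD males 1.38, 1.36, 0.488 and 0.882 RPM. HFD male 3 fell within the ND males, and the exact permutation p in males was 0.143. The fold change was 0.69 in females (SE 0.20, adjusted p = 0.405) and 0.71 in both sexes (SE 0.19, adjusted p = 0.153), both with edgeR. Neither call was lost when any 1 mouse was left out. Both were lost with the olfactory bulb markers as a covariate, in females (0.41, SE 0.335) and in both sexes (0.51, SE 0.25).

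Cxcl16, made as a membrane-bound ligand of Cxcr6 that metalloproteases release, differed with the diet in females. In ND females it ran from 1.36 RPM to 3.695 RPM, with a median of 2.23 RPM. The HFD females had 5.21, 3.10, 2.64, 3.01 and 4.66 RPM. HFD females 1 and 5 lay above every ND female, and the other 3 lay within the ND range but above its median. The ND males had 2.77, 2.46, 1.36 and 0.752 RPM, and the HFD males 2.58, 1.65, 1.66 and 2.06 RPM, all within the ND range. The fold change was 0.69 in females (SE 0.24, adjusted p = 0.475 with edgeR). In males it was 0.14, with a 95% interval from -0.61 to 0.89. In both sexes it was 0.51 (SE 0.21, adjusted p = 0.313 with edgeR). That call was lost without HFD female 1 (0.40), without HFD female 5 (0.43) or with 1 fit of the 4 groups (0.42). HFD females 1 and 5 had raised erythrocyte markers and the highest summed microglia markers (923 and 883 RPM). HFD female 2 had raised erythrocyte markers too, and the call held without it. The part of the microglia markers was not tested beyond the covariate fits. No fit had the erythrocyte markers as a covariate, and their part was not tested beyond leaving out single mice. Zmynd15 lies beside Cxcl16 and overlaps it in the annotation.

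Cxcl14, a chemokine of epithelia and, in cortex, of interneurons, was the member that was lower on HFD in males. The ND males had 95.9, 88.1, 89.0 and 83.5 RPM, and the HFD males 74.9, 63.9, 82.6 and 78.4 RPM. All 4 HFD males were below all 4 ND males. The fold change in males was -0.22 (SE 0.07, adjusted p = 0.553 with edgeR). That call was lost with the microglia markers as a covariate (-0.09, SE 0.07) and with the olfactory bulb markers (-0.17, SE 0.08). In ND females the level ran from 69.5 RPM to 90.8 RPM, with a median of 81.3 RPM, and the HFD females had 76.9, 81.0, 83.4, 86.0 and 85.4 RPM. The female groups overlapped fully, with a fold change of 0.03 and a 95% interval from -0.09 to 0.15. The interaction term, diet by sex, the test of the difference itself, was 0.25 (SE 0.09, adjusted p = 0.903 with edgeR). Cxcl14 was the 1 member called for it, of 8, where 5.21% of all genes were called. Interneuron markers summed to 1716 RPM ± 327 (SD, n = 4) in ND males and 1275 RPM ± 241 (SD, n = 4) in HFD males, 2 of 9 were called lower in males, and their part in the result was not tested.

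Cxcl12, the ligand that holds Cxcr4-bearing cells near vessels and guides migrating interneurons, ran from 59.95 RPM to 90.0 RPM in ND females and from 71.3 RPM to 94.6 RPM in HFD females. It ran from 72.8 RPM to 108 RPM in ND males and from 71.8 RPM to 91.5 RPM in HFD males. The 4 groups overlapped, and the fold change in both sexes was 0.04, with a 95% interval from -0.13 to 0.21. Cx3cl1, the neuronal ligand of microglial Cx3cr1, ran from 819 RPM to 984 RPM in ND females and from 820 RPM to 961 RPM in HFD females. In ND males it ran from 807 RPM to 878 RPM, and in HFD males from 782 RPM to 875 RPM. Its fold change for the diet in both sexes was 0.00, with a 95% interval from -0.10 to 0.09. Cx3cl1 had at least 7616 reads in every library.

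Females were then compared with males, with diet in the model. Females were higher in 6 of 8 members, all but Cxcl12 and Cxcl14, where 14.4% of all genes were called higher in females. Of the 6, 4 passed an adjusted p of 0.05 with edgeR, where 6.37% of all genes did so in that direction. These were Cxcl10 (2.26, SE 0.35, adjusted p = 0.000527), Ccl9 (1.13, SE 0.21, adjusted p = 0.00198), Ccl3 (1.57, SE 0.42, adjusted p = 0.0192) and Cx3cl1 (0.15, SE 0.05, adjusted p = 0.037). Ccl6 (1.17, SE 0.39, adjusted p = 0.0569 with edgeR) and Cxcl16 (0.63, SE 0.22, adjusted p = 0.0707 with edgeR) were called before adjustment only. For Cxcl10 all 5 HFD females were above every HFD male and 5 of 6 ND females above every ND male, with means of 5.20 against 1.11 RPM on HFD and 2.04 against 0.403 RPM on ND. For Ccl3 and Ccl6 all 6 ND females were above every ND male, whereas on HFD 3 of 5 females for Ccl3 and 2 of 5 for Ccl6 were above every HFD male. For Cxcl16 all 5 HFD females were above every HFD male, against 1 of 6 ND females above every ND male. With counts thinned to the smallest library total, a setting chosen after seeing the data, the fold changes of Cxcl10 (2.19, SE 0.33), Ccl9 (1.13, SE 0.24), Ccl3 (1.60, SE 0.43) and Cx3cl1 (0.15, SE 0.05) passed the adjusted threshold as well. The adjusted call of Cx3cl1 was lost in most of the settings that left out 1 mouse, where 3 to 5 members passed, and without ND female 1 and HFD male 1 together, the 2 mice whose identifiers begin with A.

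Ordered by group mean, HFD females were highest for Ccl3, Ccl6, Ccl9, Cxcl10 and Cxcl16, and ND males were lowest for all 5. Most neighbours in these orders overlapped in their libraries. The exceptions were Ccl9 between HFD females (2.21 RPM) and ND females (1.36 RPM), Ccl3 between HFD males (0.739 RPM) and ND males (0.227 RPM), and Ccl6 between ND females (4.00 RPM) and ND males (1.27 RPM). For Ccl6 the HFD males (4.38 RPM) were next below the HFD females (8.01 RPM), while for the other 4 genes the ND females were. The order of Cxcl12 began with ND males (89.1 RPM) and ended with ND females (76.1 RPM), and that of Cxcl14 began with ND males (89.1 RPM) and ended with HFD males (74.9 RPM). Cx3cl1 was highest in ND females (923 RPM), then HFD females (911 RPM), ND males (838 RPM) and HFD males (823 RPM), and neighbours overlapped in the order of each of these 3 genes.

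Levels of cell type markers moved with the members. Of 15 microglia markers, 12 were called higher on HFD in the fit of both sexes and 0 lower, with a median fold change of 0.29. Within a sex, 6 of 15 were called higher in females and 5 of 15 in males. The summed level of these markers ran from 571 RPM to 791 RPM in ND females, 580 RPM to 923 RPM in HFD females, 487 RPM to 587 RPM in ND males and 504 RPM to 730 RPM in HFD males. With the mean of the microglia markers as a covariate, 2 of 8 members were called in both sexes, where 7.68% of all genes were called in either direction. In females 1 of 8 was called (5.85% of all genes) and in males 0 of 5 (3.44%). The 1 in females was Ccl9 (0.57, SE 0.24), and Cxcl10 was not called there (0.86, SE 0.395). The 2 in both sexes were Cxcl10 (0.83, SE 0.30) and Ccl9 (0.53, SE 0.23), whereas Ccl3 was at 0.16, Ccl6 at 0.43 and Cxcl16 at 0.19, none of them called. Between the sexes with the same covariate, 3 of 8 members were called (20.2% of all genes) and 1, Cxcl10, passed an adjusted p (1.59, SE 0.36), as did 4.14% of all genes. Of 20 interferon-stimulated genes, which do not include Cxcl10, 20 were called higher on HFD in the fit of both sexes. Within a sex, 19 of the 19 tested were called higher in females and 7 of the 17 tested in males. Their summed level ran from 93.2 RPM to 162 RPM in ND females and from 137 RPM to 263 RPM in HFD females. In males it ran from 102 RPM to 112 RPM on ND and from 113 RPM to 164 RPM on HFD. The part of the microglia markers in the results was not tested beyond the covariate fits. No fit had the interferon-stimulated genes as a covariate, and their part was not tested.

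Olfactory bulb markers moved in the opposite direction to the members. Of 7 such markers, 6 were called lower on HFD in the fit of both sexes, and 7 of 7 were lower in females than in males. Within a sex, 6 of the 6 tested were called lower on HFD in females and 0 of 7 in males. Their summed level ran from 34.6 RPM to 148 RPM in ND females, 30.8 RPM to 38.9 RPM in HFD females, 205 RPM to 496 RPM in ND males and 35.2 RPM to 367 RPM in HFD males. With the mean of these markers as a covariate, chosen after seeing the data, 1 of 8 members was called in both sexes (7.27% of all genes), 1 of 8 in females (4.22%) and 0 of 5 in males (5.03%). In both sexes it was Cxcl10 (1.43, SE 0.44), and Ccl3 (1.002), Ccl6 (0.83), Ccl9 (0.51) and Cxcl16 (0.50) were not called. Between the sexes 3 of 8 members were called (11.4% of all genes) and 0 passed an adjusted p (0.315% of all genes) with this covariate. Olfactory bulb markers, diet and sex went together in these mice, and the part of these markers in the results was not tested.

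Markers of the other leukocytes that these chemokines act on were few. Of 12 T cell markers, 3 have a row, Cd4, Lck and Cd247, and none was called for the diet. Their summed level ran from 23.2 RPM to 46.9 RPM in ND females, 18.2 RPM to 56.0 RPM in HFD females, 20.0 RPM to 30.5 RPM in ND males and 14.7 RPM to 37.5 RPM in HFD males. Cd3e, Cd3d, Cd3g, Cd8a and the other T cell markers, all 6 NK cell markers and all 4 B cell markers were not analysed here. Of 10 macrophage and monocyte markers 5 have a row, among them Mrc1 of perivascular macrophages, and none was called for the diet in both sexes. Within a sex, 0 of 5 were called in females, and in males 1 of the 4 tested, F13a1, was called lower (-0.50, SE 0.22). The summed level of the macrophage and monocyte markers ran from 26.0 RPM to 45.7 RPM in ND females and from 22.4 RPM to 36.9 RPM in HFD females. In males it ran from 27.6 RPM to 39.5 RPM on ND and from 24.9 RPM to 36.0 RPM on HFD. Of 8 neutrophil markers 4 have a row, and the 3 tested in both sexes were called higher on HFD, with a sum of 93.0 RPM in HFD female 1 and between 0.466 RPM and 1.80 RPM in the other HFD females. All 4 erythrocyte markers with a row were called higher on HFD in both sexes, with a median fold change of 2.26, and in females, with a median of 3.12, and none of the 3 tested in males was called. These shifts were larger than that of the microglia markers, and the part of the erythrocyte and neutrophil markers in the members' results was not tested beyond leaving out HFD female 1. Without HFD female 1 the 5 members became 4 in both sexes, with Cxcl10 at 1.33, Ccl6 at 1.28, Ccl3 at 1.04 and Ccl9 at 0.73.

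To see whether the members varied together between mice of 1 group, deviations from the group means in log2 CPM were correlated over 19 libraries. The family held 36 relations, 28 pairs of members and 8 relations with the mean of the microglia markers. After Benjamini-Hochberg adjustment 3 relations passed by Pearson's r and 2 by Spearman's rho. Ccl3 followed the microglia markers (r = 0.85, permutation p = 0.00032, adjusted p = 0.0115; rho = 0.82, permutation p = 0.00072, adjusted p = 0.0245). Ccl6 also followed them (r = 0.79, permutation p = 0.00071, adjusted p = 0.0128; rho = 0.81, permutation p = 0.00136, adjusted p = 0.0245). Ccl3 and Ccl6 varied together (r = 0.74, permutation p = 0.00259, adjusted p = 0.0311; rho = 0.66, permutation p = 0.00814, adjusted p = 0.0733). Without the 2 libraries farthest from the median of the first measure, r was 0.76, 0.73 and 0.65 in the same order. Within females r was 0.87, 0.72 and 0.69, and within males 0.83, 0.94 and 0.91. Cxcl10 with the microglia markers (r = 0.57, permutation p = 0.0253, adjusted p = 0.144) and with Ccl3 (r = 0.58, permutation p = 0.0186, adjusted p = 0.144) did not pass. All 10 pairs among the 5 members that were higher on HFD had a positive r, from 0.06 for Ccl9 with Cxcl10 to 0.74, and no pair that included Cxcl12, Cxcl14 or Cx3cl1 passed. The 3 relations all missed the adjusted threshold when ND female 1 was left out (r of 0.82, 0.75 and 0.68, with 7 of 36 relations at an unadjusted permutation p under 0.05) or HFD female 3 (r of 0.79, 0.77 and 0.70, with 5 of 36). Ccl3 and Ccl6 are neighbours on the same chromosome and share every library.

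**Figure D3:**
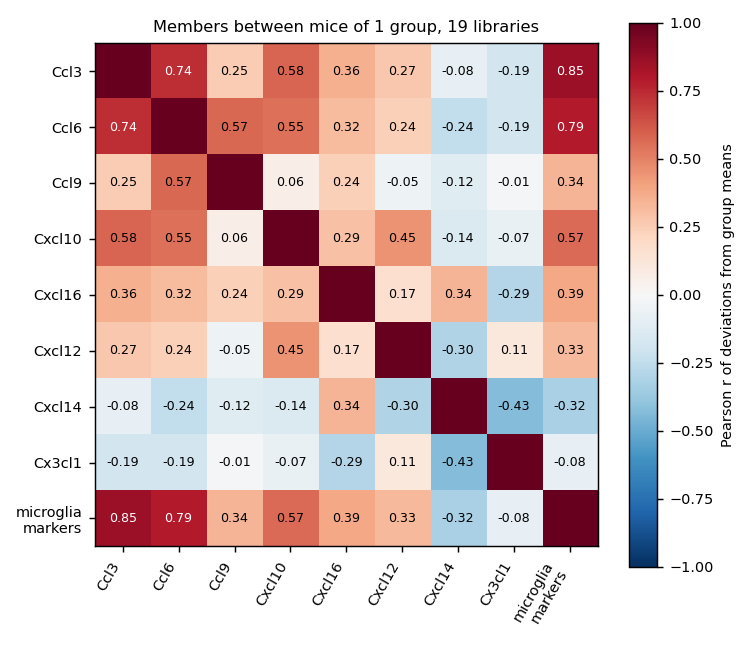
Pearson r between each pair of members, and between each member and the mean of the microglia markers, from deviations from the group means over 19 libraries. The 3 relations that passed the adjusted threshold are Ccl3 with Ccl6 (0.74), Ccl3 with the microglia markers (0.85) and Ccl6 with the microglia markers (0.79).

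**Figure D4:**
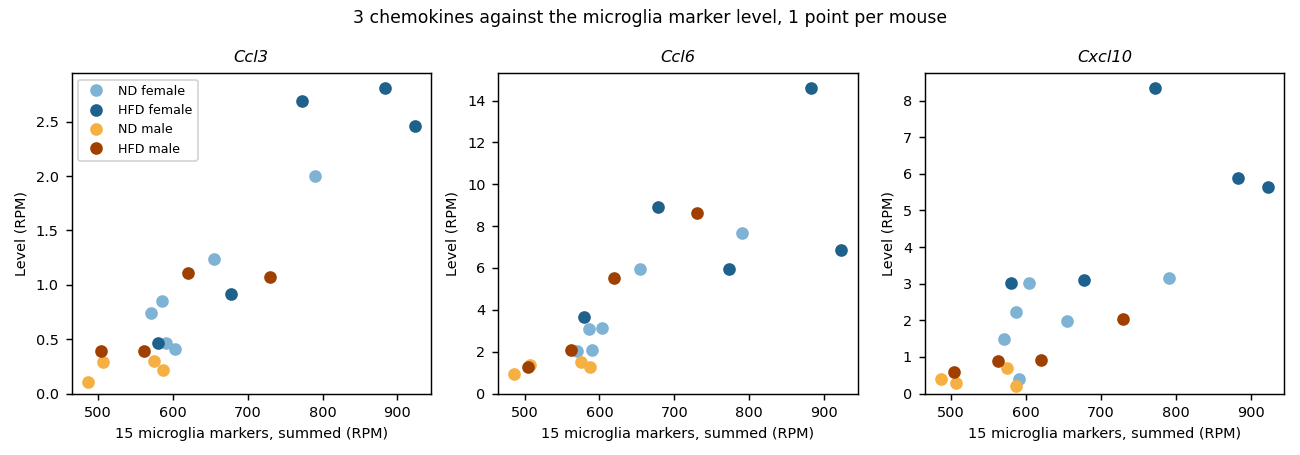
Level in RPM of Ccl3, Ccl6 and Cxcl10 against the summed level in RPM of the 15 microglia markers, 1 point per mouse, coloured by group. The 5 HFD females lie between 580 RPM and 923 RPM of markers, and the 4 ND males at 487 RPM to 587 RPM, with Ccl3 at or under 0.297 RPM.

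Of the 14933 other genes ranked by the r of their deviations over the 19 libraries, the 3 most like Ccl3 were Cd9 (r = 0.91), C4b (0.88) and Lgals3bp (0.86). Those most like Ccl6 were Arhgap30 (0.86), St14 (0.85) and Pde3b (0.83), and those most like Ccl9 were Gm5801 (0.78), Bre (0.76) and Vwa3b (0.75). Cxcl10 was followed most closely by Gbp6 (0.83), Oas1a (0.83) and Lmo1 (0.82), and Cxcl16 by Pnoc (0.85), Lgals3 (0.84) and Slc10a3 (0.83). For Cxcl12 the genes were Casc4 (0.87), 4732471J01Rik (0.83) and Jak3 (0.83), for Cxcl14 Bud13 (0.81), Fut8 (0.81) and Cdc14a (0.77), and for Cx3cl1 Usp32 (0.94), Ina (0.92) and Spred2 (0.92). These are the highest of many values, and no p is given.

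Among the 31 other chemokine ligands searched, 6 have a row, and 5 were tested in both sexes. Ccl12, a ligand of Ccr2 in the mouse, was higher on HFD (1.01, SE 0.35, adjusted p = 0.24 with edgeR) and in females (1.56, adjusted p = 0.0168). Its level was 0.523 RPM ± 0.217 (SD, n = 6) in ND females and 1.17 RPM ± 0.577 (SD, n = 5) in HFD females. Ccl27a, a chemokine of skin, was higher on HFD in males (0.24 with edgeR) and at 0.15 in both sexes, where it was not called. The other 3 had fold changes between -0.23 and -0.07 and were not called.

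Of 19 chemokine receptors, 4 have a row. Cx3cr1, the microglial receptor of Cx3cl1, was higher on HFD in females (0.24, SE 0.08) and in males (0.29, SE 0.12), and over all mice (0.26, SE 0.07, adjusted p = 0.156 with edgeR). Its level was 77.1 RPM ± 7.30 (SD, n = 6) in ND females and 90.8 RPM ± 11.04 (SD, n = 5) in HFD females, 68.4 RPM ± 8.12 (SD, n = 4) in ND males and 81.4 RPM ± 13.8 (SD, n = 4) in HFD males. Its ligand Cx3cl1 was at 0.00 (SE 0.05). Cxcr4, the receptor of Cxcl12, was at -0.15 (SE 0.25) and Ccrl2 at 0.29 (SE 0.22). Cxcr4 was called for the diet by sex interaction (1.01, adjusted p = 0.903 with edgeR). Cxcr3 and Cxcr6, the receptors of Cxcl10 and Cxcl16, were not analysed here. Of 3 atypical receptors with a row, Ackr2, which clears inflammatory CC chemokines, was higher in the fit of both sexes (0.36, SE 0.16). Ackr2 was called in females (0.48) and not in males (0.17), and Ackr1 and Ackr3 were not called. Other genes overlap Cx3cr1, Ackr1 and Ccl27a in the annotation, and reads in the shared stretches cannot be told apart.

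**Figure D5:**
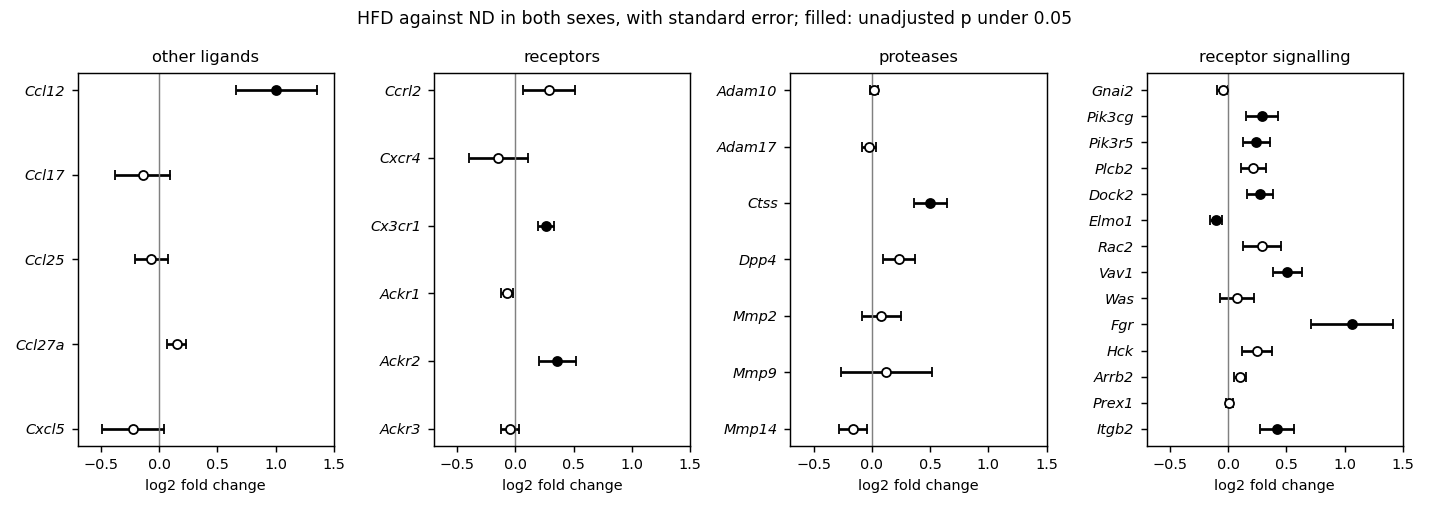
Fold change (log2) with standard error, HFD against ND in both sexes, of the other chemokine ligands, the receptors, the proteases that cut chemokines and the signalling genes downstream, with filled points at an unadjusted p under 0.05. Ccl12 (1.01) and Fgr (1.06) lie farthest to the right, and Elmo1 (-0.11) is the 1 called gene to the left of 0.

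Of 7 proteases tested that cut or shed chemokines, 1 was higher in the fit of both sexes, Ctss, cathepsin S of microglia, which cuts Cx3cl1 (0.50, SE 0.14, adjusted p = 0.165 with edgeR). Ctss was called in females (0.58) and not in males (0.39). Mmp14, a membrane metalloprotease, was lower on HFD in males (-0.42, SE 0.16 with edgeR) and was not called in both sexes (-0.16). Of 14 genes of signalling downstream of the receptors, 6 were higher and 1 lower in the fit of both sexes. Within a sex, 3 of the 13 tested were called higher in females and 1 of the 13 tested in males. Vav1, a guanine nucleotide exchange factor of leukocytes, was higher at 0.51 (SE 0.12), the Src family kinase Fgr at 1.06 (SE 0.35), the integrin chain Itgb2 at 0.42 (SE 0.15) and Dock2, an activator of Rac, at 0.27 (SE 0.11). Pik3r5, a regulatory subunit of the phosphoinositide kinase that answers to G proteins, was higher as well, at 0.24 (SE 0.11). Elmo1, a partner of Dock proteins that neurons also express, was lower at -0.11 (SE 0.05). None of these genes passed an adjusted p of 0.05 for the diet.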

How the data were processed

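RNA-seq libraries from 19 mice were analysed, 1 per mouse, in 4 groups set by the diet and sex in the labels. The authors deposited 1 table with read counts per gene and RPM, and per the labels' processing notes reads were aligned to mm9 with Subread 1.4.0 and counted with featureCounts, while the strand setting is not given in the sources used here. Library totals were 9308206 to 17178044 reads, of which 99.2% fell on genes in the table. Counts were tested in R 4.3.3 with edgeR 4.0.16 (filterByExpr with a minimum count of 10 and a minimum total of 15, TMM scaling, robust quasi-likelihood F test, Benjamini-Hochberg adjustment over all genes tested), and the deposited RPM gave levels. Intervals are at 95%. The p-values of edgeR set a fold change against the spread between mice. Males were tested with edgeR where the filter kept the gene and otherwise with the exact permutation test on log2(RPM + 1). Correlations used 100000 permutations within groups (Python 3.11.15, numpy 2.4.6). Scripts were tested on simulated data.

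All 9 members were to be named. From the other chemokine lists, genes at an unadjusted p under 0.05 for the diet were named, up to 6 of a list, with receptors of members (1 receptor is not reported here), and for each member the 3 genes most like it. The members and lists were chosen with earlier results of these data known. Alternatives were DESeq2 1.42.0, limma 3.58.1 on voom values and on log2(RPM + 1) or log2(RPM + 0.1), RLE scaling, library totals, no filter, a filter of 1 CPM in 4 libraries, 1 fit of 4 groups, microglia markers as a covariate, and leaving out each mouse or the 2 mice with identifiers in A. Thinned counts, olfactory bulb markers as a covariate and each diet alone were added after seeing the data. Promoter windows of 250 bases were read from RefSeq.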

Additional observations from a re-analysis of the deposited data

Results flagged for a closer look

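Cxcl14 was the 1 value marked for a closer look, because it was called for the interaction of diet and sex before adjustment. Of all 14934 genes, 5.21% were called for that interaction. Cxcl14 had an interaction of 0.25 on the log2 scale (SE 0.09, adjusted p = 0.903 with edgeR), with a fold change of 0.03 in females and -0.22 in males. It was lower in 4 of 4 HFD males than in every ND male, and the call in males was lost with microglia markers (-0.09) or olfactory bulb markers (-0.17) as a covariate. The adjusted p did not pass, and the interaction ran from 0.19 to 0.30 when each mouse was left out in turn. Each member was also examined for a library far from the others of its group, in 32 groups, and none was found.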

How the results depend on the processing

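Counts of members called for the diet moved most with a marker covariate. With the microglia markers they were 1 in females, 0 in males, 2 in both sexes, and 3 between the sexes, of which 1 passed adjustment. With the olfactory bulb markers they were 1, 0, 1 and 3, of which 0 passed. Without the filter 4 were called in males. DESeq2 put 2 past adjustment in both sexes, where the share of all genes was not counted. Between the sexes 1 passed adjustment in ND mice alone and 0 in HFD mice alone. Of the correlations, 15 passed without removing group means and 0 without the 2 mice with identifiers in A. Leaving out each mouse in turn gave 3 to 5 members in females, 2 in males, 4 to 5 in both sexes, 1 for the interaction, 6 between the sexes (3 to 5 adjusted) and 0 to 4 correlations. The causes of these changes were not tested.

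Signs turned only in values that were not called in the main test. In females, Cxcl14 was -0.04075 with olfactory bulb markers (-0.00374 to 0.05945 over the mice left out), and Cx3cl1 was 0.00724 with microglia markers and 0.0004418 without the A mice (-0.05403 to 0.02498). In males, Cxcl16 was -0.00338 without the A mice (-0.11 to 0.39), Cxcl12 ran from -0.15 to 0.02082, and Cx3cl1 was -0.0262 and -0.02623 with limma on log2(RPM + 1) and log2(RPM + 0.1), -0.02581 with library totals, -0.01534 with microglia and -0.07956 with olfactory bulb markers (-0.03317 to 0.03974). In both sexes, Cxcl12 was -0.03646 and Cx3cl1 0.004066 with microglia markers, and Cx3cl1 was 0.01392 without the A mice (-0.03061 to 0.01348). For the interaction, limma on log2(RPM + 1) gave 0.02916 for Ccl3, 0.1174 for Ccl9, 0.4835 for Cxcl10 and 0.006842 for Cx3cl1, and on log2(RPM + 0.1) 0.01305 for Ccl9, 0.2069 for Cxcl10 and 0.006852 for Cx3cl1. Ccl9 was 0.1371 without the A mice and 0.08014 with thinned counts (-0.32 to 0.15), Cxcl10 was 0.1174 with voom (-0.50 to 0.35), and Cx3cl1 was 0.006312 with library totals (-0.06115 to 0.01817). Between the sexes, Cxcl14 was -0.0009198 with DESeq2, -0.003581 and -0.003546 with limma on log2(RPM + 1) and log2(RPM + 0.1), -0.0009831 with RLE scaling, -0.005445 with library totals, -0.01564 without the A mice and -0.1126 in ND mice alone (-0.03583 to 0.02701).

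No paired analysis was possible because the labels give no replicate numbers that groups share. Depth limits Ccl3, Ccl9 and Cxcl10 in males, where single libraries held 1 to 21 reads.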
